A study of Mus musculus with 18 samples.

Results

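The genes described here encode the subunits of the mitochondrial respiratory chain and ATP synthase, and were followed in the lungs of mice of 3 inbred strains after thoracic irradiation. A gene was taken when a probe set of the array named it alone and its symbol began with Nduf (but not Ndufaf), Uqcr, Cox4, Cox5, Cox6, Cox7, Cox8 or Atp5, or was Sdha, Sdhb, Sdhc or Sdhd. This gave 82 of the 18193 genes named alone by a probe set, through 169 probe sets. Of these, 34 belonged to complex I, 4 to complex II, 8 to complex III, 19 to complex IV (Ndufa4 and Ndufa4l2 counted there) and 17 to complex V. After a filter on dim probe sets, 80 of the 82 could be tested, among 12412 genes in all. Cox7b2, a testis form of a complex IV subunit, and Ndufb4, a complex I subunit, were not tested. Their single probe sets had signals of 0.1 to 7.4 and of 0.7 to 14.5.

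The study compared irradiated with untreated mice of the strains A/J, C57BL6/J and C3H/HeJ, on 18 single-colour arrays of right lung RNA, 3 per group. Irradiated mice received 18 Gy to the whole thorax at 8 weeks of age, with the rest of the body shielded by lead, and were killed when moribund, which fell at 30 to 32 weeks of age in A/J, 28 to 30 weeks in C57BL6/J and 20 to 22 weeks in C3H/HeJ. Untreated mice of all 3 strains were 15 to 26 weeks old. Because irradiated A/J and C57BL6/J mice were older than the controls, age and irradiation cannot be told apart there, and the irradiated groups are models of the terminal stage only. Lung tissue holds many cell types, so fewer cells of a type and less RNA per cell cannot be told apart.

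The respiratory chain passes electrons from NADH (complex I) and succinate (complex II) through coenzyme Q to complex III, then through cytochrome c to complex IV, which reduces oxygen, and complex V uses the resulting proton gradient to make ATP. Most subunits are encoded in the nucleus and are made in nearly all cells, under regulators that include NRF1, GABP, YY1 and the estrogen-related receptors with their coactivators PGC-1alpha and PGC-1beta. Several complex IV subunits have a second form. Cox6a2, Cox7a1 and Cox8b are the forms of heart and skeletal muscle, Cox7a1 and Cox8b are also made in brown fat, and Cox6a1, Cox7a2 and Cox8a are their widely expressed partners. Cox4i2 is a lung-enriched form of the Cox4 subunit that takes part in oxygen sensing in pulmonary vessels. Pulmonary veins in mice carry a sleeve of heart muscle that reaches into the lung.

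RefSeq promoter windows (GRCm38.p6, 250 bases before to 50 bases after the start of transcription, 300 in all) were found for 67 of the 82 genes. The 4 windows below belong to both forms of the Cox8 subunit, of which one fell and one was not called in irradiated C3H/HeJ lung, to the muscle form Cox7a1, and to Cox5a, the member that rose there. Capitals mark matches, on either strand, to the GABP core CCGGAAGT, to the TATA box TATAAA and to the E-box CAGCTG bound by muscle factors, 3 motifs chosen after expression values were seen.
Cox8a, chr19:7217567-7217866, minus strand: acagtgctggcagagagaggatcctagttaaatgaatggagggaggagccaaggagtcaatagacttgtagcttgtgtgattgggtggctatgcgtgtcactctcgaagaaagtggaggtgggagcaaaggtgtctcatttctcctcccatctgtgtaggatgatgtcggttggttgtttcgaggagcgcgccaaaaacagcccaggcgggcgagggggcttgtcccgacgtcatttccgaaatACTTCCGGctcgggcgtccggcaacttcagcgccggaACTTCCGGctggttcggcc
Cox8b, chr7:140900397-140900696, minus strand: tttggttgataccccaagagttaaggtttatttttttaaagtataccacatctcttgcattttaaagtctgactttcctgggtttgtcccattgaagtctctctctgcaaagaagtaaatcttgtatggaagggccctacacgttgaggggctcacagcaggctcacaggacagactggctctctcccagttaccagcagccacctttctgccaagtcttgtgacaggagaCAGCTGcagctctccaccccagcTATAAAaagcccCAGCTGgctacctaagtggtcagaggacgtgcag
Cox7a1, chr7:30183921-30184220, plus strand: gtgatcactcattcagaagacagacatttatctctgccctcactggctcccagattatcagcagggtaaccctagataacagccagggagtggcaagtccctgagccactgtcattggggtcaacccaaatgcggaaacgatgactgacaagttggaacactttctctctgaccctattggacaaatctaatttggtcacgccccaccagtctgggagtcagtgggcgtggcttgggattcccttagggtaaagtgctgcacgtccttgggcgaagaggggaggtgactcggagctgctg
Cox5a, chr9:57520982-57521281, plus strand: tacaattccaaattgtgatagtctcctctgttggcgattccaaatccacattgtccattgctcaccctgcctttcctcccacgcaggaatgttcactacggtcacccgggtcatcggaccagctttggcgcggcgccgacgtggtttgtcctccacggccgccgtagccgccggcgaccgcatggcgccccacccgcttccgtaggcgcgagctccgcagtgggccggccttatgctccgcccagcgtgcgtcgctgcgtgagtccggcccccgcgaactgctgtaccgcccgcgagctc
The Cox8a window held 19 CG dinucleotides and 2 GABP cores. The Cox8b window held 2 CG dinucleotides, 1 TATA box and 2 E-boxes. Cox7a1 had 7 CG dinucleotides and Cox5a had 35, with no match to these motifs in either window. The median was 19 CG dinucleotides over the 72 windows of the subunit genes and 7 over all 32851 RefSeq windows of this length. Among the subunit windows, 12.5% held the NRF1 core GCGCATGC against 2.71% of all windows, 12.5% held the YY1 core AAGATGGC against 2.75%, and 11.1% held the estrogen-related receptor core AAGGTCA against 4.72%. For the motifs added later the shares were 6.94% against 3.89% for GABP, 12.5% against 13.6% for the TATA box and 8.33% against 16.3% for the E-box, both strands searched in each case. None of the searched motifs contains another, and a match is a description of letters, not a binding site.

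Several arrays stood apart. Untreated C57BL6/J arrays 1 and 3 and irradiated A/J array 3 had mean levels of 10 skeletal muscle markers of 7.34, 7.29 and 7.13 (normalised log2 signal, that is log2 of the deposited signal plus 7 after quantile normalisation), against 4.15 to 5.94 on the other arrays. The same 3 arrays had squamous epithelium marker means of 8.44, 8.46 and 7.94, against 3.87 to 5.24 elsewhere. Irradiated C3H/HeJ array 3 went against its strain label in part: over 37 probe sets that set untreated C3H/HeJ apart from both other strains by at least 2 log2 units, its median position was 0.421 on a scale from 0 (the other strains) to 1 (C3H/HeJ), against 0.981 and 0.957 for the other 2 irradiated C3H/HeJ arrays. The actin probe 5'-to-3' signal ratio, a measure of RNA integrity, was 0.413, 0.551 and 0.528 on the irradiated A/J arrays and 0.677 to 0.766 on the other 15. The Gapdh ratio was 0.294 on irradiated A/J array 1, which stood far from the 0.876 to 1.30 of the other 17. Trimmed mean signals ranged from 46.3 to 176. Lung markers were present throughout, with alveolar type 2 marker means of 11.2 to 11.9. Endothelial marker means were lower on irradiated than on untreated arrays in each strain, at 8.69 to 9.29 against 9.51 to 9.71 in A/J, 8.12 to 8.85 against 9.0 to 9.17 in C57BL6/J, and 8.57 to 8.68 against 9.50 to 9.72 in C3H/HeJ. Macrophage marker means were 8.15 to 9.36 on irradiated and 8.03 to 8.13 on untreated A/J arrays, 7.41 to 8.64 against 7.68 to 7.81 in C57BL6/J, and 8.75 to 9.33 against 7.87 to 8.01 in C3H/HeJ.

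With quantile normalisation, smaller shares of the subunit genes than of all genes were called in irradiated lung, but with median centring the share called higher in A/J was larger, at 42.5% of subunit genes against 33.6% of all genes. The test was limma's moderated test over all 12412 genes, with Benjamini-Hochberg adjusted p under 0.05 as a call. In A/J, 8 of 80 subunit genes rose and 4 fell, which is 10% and 5%, against 15.1% higher and 8.95% lower over all genes. In C57BL6/J, 0 were called higher and 1 fell, or 1.25%, against 2.99% and 2.36% of all genes, and at an unadjusted p under 0.05 limma had 0 higher and 10 lower, or 12.5% lower against 10.2% of all genes. In C3H/HeJ, 1 rose and 6 fell, or 1.25% and 7.5%, against 12.8% and 10.6% of all genes. Without irradiated C3H/HeJ array 3, the 7 calls in that strain became 4. The bar plot of shares called sets these values side by side.

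**Figure D1:**
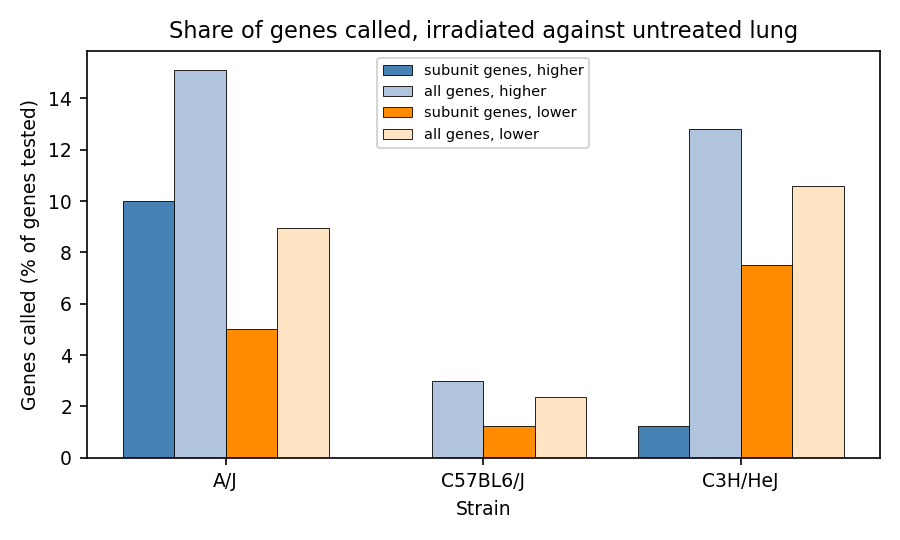
Share of genes called higher or lower in irradiated against untreated lung (percent of genes tested, limma, adjusted p under 0.05), by strain, for the 80 subunit genes and for all 12412 genes. With the quantile normalisation plotted, the subunit bars lie below the bars of all genes in every strain and direction, whereas with median centring the A/J share called higher was 42.5% for subunit genes and 33.6% for all genes.

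The differences were also small. The median absolute log2 difference was 0.137 for subunit genes and 0.248 for all genes in A/J, 0.142 against 0.167 in C57BL6/J, and 0.120 against 0.241 in C3H/HeJ. Differences beyond 0.5 log2 units were found for 1 of 80 subunit genes in A/J, 3 in C57BL6/J and 4 in C3H/HeJ, where 22.7%, 11.6% and 21.8% of all genes passed that size. Beyond 1 log2 unit there were 0, 1 and 1 subunit genes, against 5.99%, 2.47% and 5.98% of all genes. The subunit genes were also brighter, with a median normalised log2 signal of 9.63 against 6.88, and had smaller standard errors, with a median of 0.114 against 0.157. The part of brightness in the smaller differences was not tested. Signed medians were 0.05 in A/J, -0.12 in C57BL6/J and -0.06 in C3H/HeJ, beside 0.09, -0.01 and 0.01 over all genes. Positive differences were found for 49 of 80 subunit genes in A/J, 14 in C57BL6/J and 32 in C3H/HeJ. Over all 12412 genes the counts were 7436, 5902 and 6372, so that the A/J count was near the share of all genes.

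The signed medians depended on scaling in 2 strains. Without any scaling between arrays, the median of all genes moved to 0.557 in A/J and 0.614 in C3H/HeJ, and with median centring to 0.328 and 0.241. Relative to these, the subunit genes lay 0.06 above in both strains without scaling, and 0.06 above in A/J and 0.05 above in C3H/HeJ with centring, where quantile normalisation placed them 0.03 and 0.07 below. In C57BL6/J the subunit median lay 0.10 below that of all genes under all 3 scalings. Calls over all genes split into 1875 higher and 1111 lower in A/J, against 2312 and 144 without scaling and 4162 and 536 with centring. In C3H/HeJ they split into 1594 and 1321, against 3195 and 71, and 3015 and 461. For the subunit genes the A/J split of 8 higher and 4 lower became 6 and 0 without scaling and 34 and 0 with centring, and the C3H/HeJ split of 1 and 6 became 11 and 1, and 15 and 1. In A/J the share of subunit genes called higher was 7.5% without scaling, against 18.4% of all genes, and 42.5% with centring, against 33.6%. In C3H/HeJ it was 13.8% against 25.4% and 18.8% against 24.3%, and the share called lower without scaling was 1.25% against 0.564%. The order of subunit genes and all genes in the share called thus depended on scaling.

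By array, the median deviation of the 80 genes from the mean of the strain's own controls was 0.08, 0.07 and 0.02 on the irradiated A/J arrays, -0.19, -0.08 and -0.07 in C57BL6/J, and -0.01, -0.07 and -0.06 in C3H/HeJ. The untreated arrays themselves spanned -0.08 to 0.05 in A/J, -0.05 to 0.09 in C57BL6/J and -0.05 to 0.09 in C3H/HeJ. All 3 irradiated C57BL6/J arrays thus lay below their controls, the nearest at -0.0696 beside a lowest control of -0.0507, while in A/J and C3H/HeJ the groups overlapped. All 3 irradiated arrays lay above all 3 untreated arrays for 17 subunit genes in A/J and below for 10, where 25.2% and 15.2% of all genes did so. In C57BL6/J the counts were 3 and 22, against 11.7% and 12.5% of all genes, and in C3H/HeJ 7 and 16, against 21.4% and 18.9%.

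**Figure D2:**
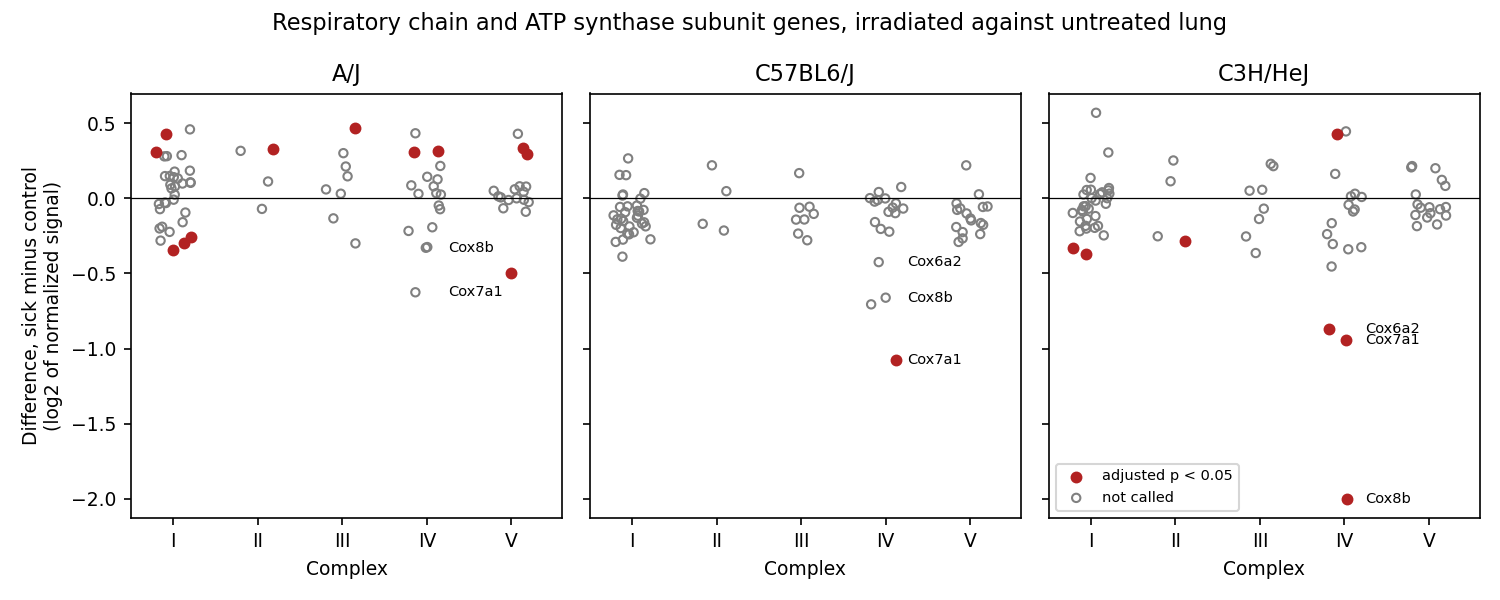
Difference between irradiated and untreated lung (log2 of normalised signal, y axis) for each of the 80 subunit genes, by complex (x axis) and strain (panels); filled points have a limma adjusted p under 0.05. Most points lie within 0.5 of 0. In C3H/HeJ the lowest points are the muscle forms Cox8b, Cox7a1 and Cox6a2 of complex IV, at -2.00, -0.94 and -0.87. In A/J and C57BL6/J the lowest point is Cox7a1, at -0.63 and -1.08, while other genes lie below Cox8b and Cox6a2.

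Complex I, the NADH dehydrogenase, had 33 tested subunits. In A/J 2 rose and 3 fell, or 6.06% and 9.09%, against 15.1% and 8.95% of all genes. In C57BL6/J 0 were called, against 2.99% and 2.36%. In C3H/HeJ 0 rose and 2 fell, or 6.06%, against 12.8% and 10.6%. Ndufa2 and Ndufa8, accessory subunits, rose in A/J by 0.42 ± 0.11 and 0.31 ± 0.10 (log2 difference ± SE, n = 3 against 3; limma adjusted p = 0.0125 and 0.0383). Ndufa2 stood at 9.80, 9.50 and 9.57 on the untreated and 10.11, 9.89 and 10.15 on the irradiated A/J arrays, so that the groups did not overlap. Ndufa10 had the highest value in A/J, 0.46 ± 0.16, without passing the test (limma adjusted p = 0.0513). Ndufs7, which holds an iron-sulfur cluster, lay at -0.28, -0.27 and -0.25 in A/J, C57BL6/J and C3H/HeJ, not called in any. The calls of Ndufb10 (-0.30), Ndufc1 (-0.34) and Ndufc2 (-0.26) as lower in A/J changed sign without scaling and with median centring. In C57BL6/J the lowest values were those of Ndufs8 (-0.39), Ndufa3 (-0.29) and Ndufv1 (-0.28). These come from probe sets with the suffix x, by which the maker marks probes that may bind other transcripts. The other kept probe sets of these genes are not given here. The highest values in C57BL6/J were those of Ndufb1 (0.26, from a dim probe set), Ndufa6 (0.16) and Ndufs3 (0.15). Ndufs8 and Ndufv1 hold iron-sulfur clusters of the electron path. At an unadjusted p under 0.05, limma had 0 complex I genes higher and 5 lower in that strain, where 10.2% of all genes were lower.

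In C3H/HeJ the membrane arm subunits Ndufb11 and Ndufb3 were lower by 0.37 ± 0.09 and 0.33 ± 0.09 on the log2 scale (limma adjusted p = 0.00789 and 0.0112), but both values turned positive without scaling, and that of Ndufb3 also with centring. Ndufb11 was 10.57, 10.52 and 10.72 on the untreated and 10.18, 10.22 and 10.30 on the irradiated C3H/HeJ arrays. Its other probe sets gave differences of -0.35 and -0.17. Without irradiated C3H/HeJ array 3 both calls held, at -0.40 and -0.31 (limma adjusted p = 0.0133 and 0.0392). Ndufb1 had the highest value of complex I there, 0.57 ± 0.22, and was not called (limma adjusted p = 0.0788), followed by Ndufb6 at 0.30 and Ndufb5 at 0.14. The Ndufb1 probe set was dim, with a mean level of 5.35 over the arrays, where 16% of all tested genes were lower. Ndufs1, the largest subunit of the electron input module, lay at 0.11, -0.08 and -0.10 in A/J, C57BL6/J and C3H/HeJ, and Ndufv1, which binds NADH, at 0.14, -0.28 and 0.04.

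Complex II is succinate dehydrogenase, shared with the tricarboxylic acid cycle, and all 4 subunits were tested. In A/J 1 rose, in C57BL6/J 0 were called or passed an unadjusted p of 0.05 in limma, and in C3H/HeJ 1 fell. A single gene is 25% of this complex, against 15.1% of all genes higher in A/J and 10.6% lower in C3H/HeJ. Sdhc, a membrane anchor, was called higher in A/J at 0.32 ± 0.11 (limma adjusted p = 0.0484), while its dimmer probe set gave -0.34. With the mean of its probe sets the value was -0.01. Sdha, the flavoprotein with the succinate site, was called lower in C3H/HeJ at -0.28 ± 0.09 (limma adjusted p = 0.0259), with signs reversed without scaling and with centring. Its untreated C3H/HeJ arrays read 9.59, 9.69 and 9.59 and its irradiated arrays 9.28, 9.44 and 9.31. A second probe set gave -0.32 and was called, and another, dim, gave -0.06. Without irradiated array 3 the Sdha value was -0.26 (limma adjusted p = 0.0787), and the call was also lost without irradiated array 1 or untreated array 2. Sdhb, the iron-sulfur subunit, lay at -0.07, -0.21 and -0.25 in A/J, C57BL6/J and C3H/HeJ, not called in any. Sdhd, the other anchor, lay at 0.31, 0.22 and 0.11.

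Complex III, the cytochrome bc1 complex, had 8 tested subunits, of which 1 rose in A/J and 0 were called in C57BL6/J or C3H/HeJ. The A/J share was 12.5%, against 15.1% of all genes called higher. Uqcrq, a small accessory subunit, was 8.97, 8.66 and 8.95 on the untreated and 9.59, 9.17 and 9.21 on the irradiated A/J arrays, a difference of 0.47 ± 0.14 (limma adjusted p = 0.0219). Its values in C57BL6/J and C3H/HeJ were 0.17 and 0.21, not called. Uqcrc2, a core subunit, had the lowest values in A/J and C3H/HeJ, -0.30 and -0.36 (limma adjusted p = 0.106 and 0.0535). Uqcrc1, the other core subunit, lay at 0.15, -0.14 and 0.06, and the Rieske iron-sulfur protein gene Uqcrfs1 at 0.21, -0.06 and 0.23. Among the small subunits, Uqcr10 lay at 0.30, -0.24 and -0.14, Uqcr11 at 0.03, -0.28 and -0.25, Uqcrh at -0.13, -0.14 and -0.07, and Uqcrb at 0.06, -0.06 and 0.05. Counts at an unadjusted p under 0.05 were 0 in either direction in C57BL6/J, and 1 higher and 1 lower in C3H/HeJ.

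Complex V, ATP synthase, had 17 tested subunits, with 2 higher and 1 lower in A/J and 0 called in the other strains by limma. The A/J shares were 11.8% and 5.88%, against 15.1% and 8.95% of all genes. At an unadjusted p under 0.05, 3 of 17 were lower and 0 higher in C57BL6/J, where 10.2% of all genes were lower, and 0 passed in C3H/HeJ. Atp5g1, a gene for the membrane ring subunit c, was higher in A/J by 0.33 ± 0.11 (limma adjusted p = 0.0446), whereas Atp5g2 and Atp5g3, which encode the same mature protein, lay at -0.03 and 0.01. Atp5mpl, a small membrane subunit, rose by 0.30 ± 0.10 (limma adjusted p = 0.0482). Atp5h, of the peripheral stalk, was 11.27, 11.29 and 11.19 on the untreated and 10.58, 10.71 and 10.97 on the irradiated A/J arrays. That difference of -0.50 ± 0.12 was called (limma adjusted p = 0.00847), but it turned to 0.09 without scaling, and the other Atp5h probe set gave -0.05. None of the catalytic core genes was called: Atp5a1 lay at 0.08, -0.03 and -0.06 and Atp5b at -0.01, -0.13 and 0.02 in A/J, C57BL6/J and C3H/HeJ. Atp5md, a small membrane subunit, lay at 0.43, -0.29 and 0.20, and was not called in any strain. Near the ends of the range were also Atp5pb (-0.09) and Atp5c1 (-0.07) in A/J, Atp5d (-0.27), Atp5e (-0.24), Atp5mpl (0.22) and Atp5l (0.03) in C57BL6/J, and Atp5c1 (-0.17), Atp5j (-0.13), Atp5g2 (-0.19) and Atp5g1 (0.21) in C3H/HeJ. Over the whole complex the values ran from -0.50 to 0.43 in A/J, -0.29 to 0.22 in C57BL6/J and -0.19 to 0.21 in C3H/HeJ.

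The 12 calls in A/J rested on few arrays. With 1 array left out, 3 of the subunit genes were called without untreated array 1, 3 without untreated array 2, 6 without untreated array 3, 6 without irradiated array 1, 4 without irradiated array 2 and 8 without irradiated array 3. With the 3 arrays rich in skeletal muscle and squamous markers set aside, 5 were called. Ndufa2, Uqcrq and Atp5h each kept their call in 12 of 15 alternative settings, and the other 9 in 3 to 8. The low actin 5'-to-3' ratios lay on the same irradiated A/J arrays, and the low Gapdh ratio on irradiated array 1, and their part in these calls was not tested. Cox5b and Cox6c, complex IV subunits called higher in A/J at 0.31 and 0.31 (limma adjusted p = 0.0364 and 0.0337), were not called in the other strains, and a second probe set of Cox6c gave -0.13. Both calls were lost with the mean of probe sets, and the Cox5b value comes from a probe set with the suffix x.

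Complex IV, cytochrome c oxidase, had 18 tested subunits, with 2 higher in A/J, 1 lower in C57BL6/J, and 1 higher and 3 lower in C3H/HeJ. As shares these were 11.1% higher in A/J, against 15.1% of all genes, and 5.56% lower in C57BL6/J, against 2.36%. In C3H/HeJ they were 5.56% higher and 16.7% lower, against 12.8% and 10.6%. The largest difference among the 80 genes over all strains was that of Cox8b in C3H/HeJ. Cox8b, the muscle and brown fat form of subunit VIII, was 7.29, 7.07 and 7.92 on the untreated and 6.11, 4.54 and 5.63 on the irradiated C3H/HeJ arrays. No irradiated array reached the lowest control. It fell by 2.00 ± 0.42 on the log2 scale, to 0.25 of the untreated level (limma adjusted p = 0.00312), and was called in 15 of 15 alternative settings, with values of -2.34 to -1.40. Without irradiated C3H/HeJ array 3 the difference was -2.10 (limma adjusted p = 0.00818). Cox8a, the widely expressed form, was 9.40, 9.25 and 9.40 against 9.45, 9.31 and 9.33 on the same arrays, a difference of 0.01 ± 0.10.

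Cox7a1, the muscle form of subunit VIIa, was 6.88, 6.93 and 7.36 on the untreated and 6.50, 5.81 and 6.03 on the irradiated C3H/HeJ arrays, and fell by 0.94 ± 0.30 (limma adjusted p = 0.0336). Without irradiated array 3 the value was -0.90 (limma adjusted p = 0.0895), and the call was also lost without irradiated array 2, without any 1 untreated array, without scaling and with centring, although the sign held. In C57BL6/J its untreated arrays read 7.28, 6.30 and 7.18 and its irradiated arrays 5.08, 6.09 and 6.36, so that the highest irradiated array passed the lowest control. This was the single call in that strain, a drop by 1.08 ± 0.30 (limma adjusted p = 0.0497). Untreated C57BL6/J arrays 1 and 3, the ones rich in skeletal muscle markers, were the high ones, and with them and irradiated A/J array 3 set aside the difference was -0.46 ± 0.40 (limma adjusted p = 0.8). The call was also lost without irradiated C57BL6/J array 1 or 2, or untreated array 1 or 3. In A/J, Cox7a1 stood at 7.19, 6.72 and 6.97 against 6.26, 6.46 and 6.27, without overlap, and the difference of -0.63 ± 0.30 did not pass (limma adjusted p = 0.148). The partner Cox7a2 lay at 0.09, -0.10 and -0.04 in A/J, C57BL6/J and C3H/HeJ.

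Cox6a2, the muscle form of subunit VIa, was 8.53, 7.89 and 8.27 on the untreated and 7.45, 7.33 and 7.30 on the irradiated C3H/HeJ arrays. It fell by 0.87 ± 0.28 (limma adjusted p = 0.036), and by 0.84 without irradiated array 3 (limma adjusted p = 0.091), and a dimmer second probe set gave -0.33. The Cox6a2 call was lost without any 1 irradiated array, without untreated array 1 or 3, without scaling and with centring, with the sign unchanged. In C57BL6/J it lay at -0.42 and in A/J at 0.08, neither called. The partner Cox6a1 lay at -0.05, 0.04 and 0.16. Cox8b in C57BL6/J was 7.58, 6.41 and 7.09 against 5.66, 6.25 and 7.18, a difference of -0.66 ± 0.42 (limma adjusted p = 0.419), and in A/J the difference was -0.33 ± 0.42 (limma adjusted p = 0.61).

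**Figure D3:**
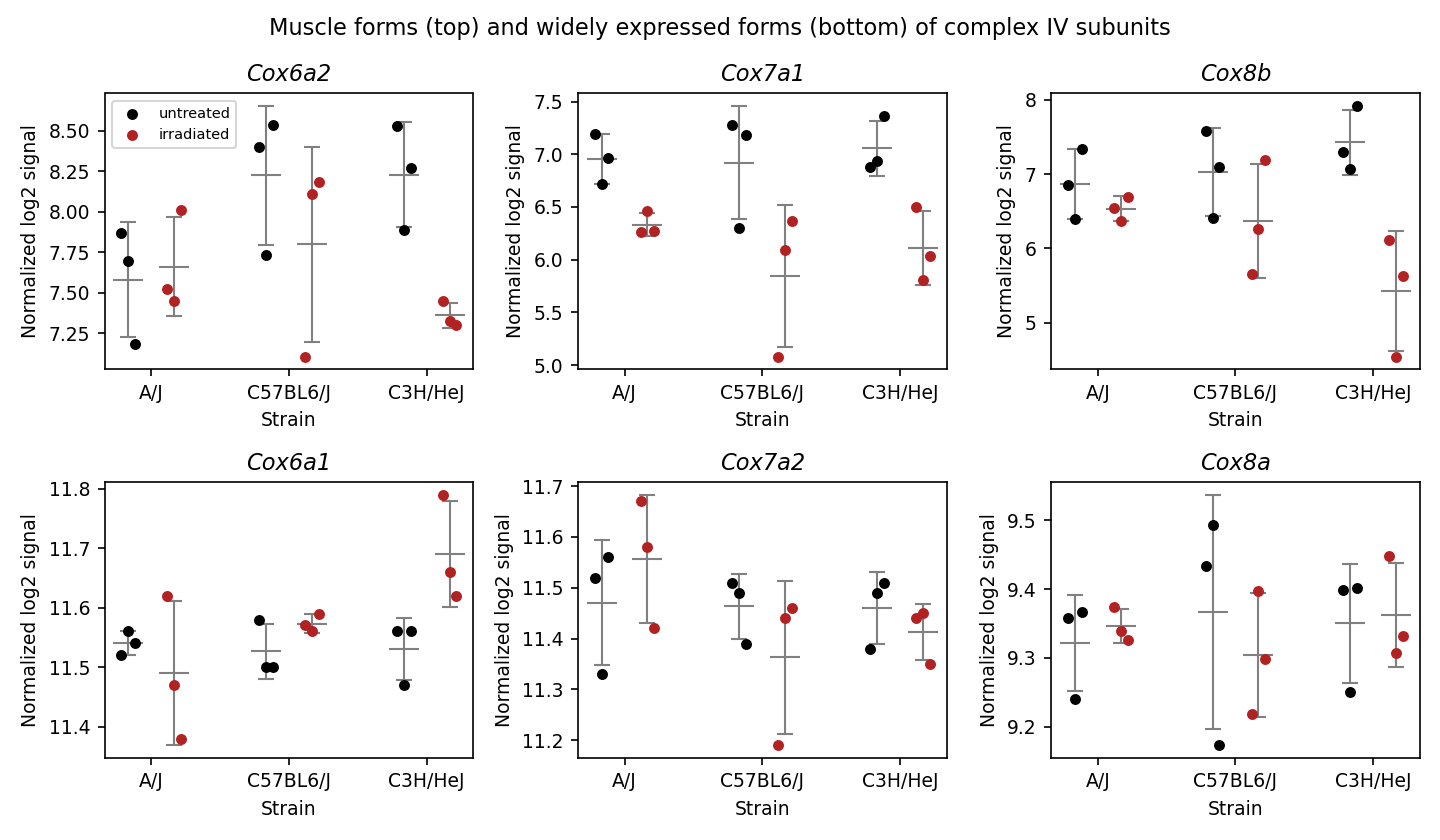
Normalised log2 signal (y axis, scaled per panel) of 3 muscle forms of complex IV subunits (top) and their widely expressed partners (bottom) on every array, by strain (x axis), untreated in black and irradiated in red, with the mean and SD of 3 arrays in grey. The irradiated C3H/HeJ arrays lie below all controls for Cox6a2, Cox7a1 and Cox8b, and Cox8a overlaps in every strain.

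Markers of heart muscle had negative median differences in C3H/HeJ and C57BL6/J. In A/J their median was positive, while Cox7a1, Cox8b and Cox6a2 lay at -0.63, -0.33 and 0.08. All 10 were measured and all 10 passed the filter. In C3H/HeJ 6 were called lower and 0 higher, or 60% lower against 10.6% of all genes, with a median difference of -0.78. In C57BL6/J 3 were called lower and 0 higher, or 30% lower against 2.36%, with a median of -0.71. In A/J 1 was called higher and 0 lower, or 10% higher against 15.1%, with a median of 0.19. Their mean level was 8.52 to 8.74 on untreated and 7.74 to 8.04 on irradiated C3H/HeJ arrays, 8.14 to 9.0 against 7.26 to 8.17 in C57BL6/J, and 7.52 to 8.56 against 8.34 to 8.45 in A/J. Untreated C57BL6/J arrays 1 and 3, the ones rich in skeletal muscle markers, were at 9.0 and 8.88. Untreated array 2, at 8.14, lay within the irradiated range. None of the defining markers was at 0: Myl7, the atrial myosin light chain, averaged 10.3 in untreated and 9.17 in irradiated C3H/HeJ lung, and Tnni3, cardiac troponin I, 8.64 and 7.14. Nppa, another of the 10, went the other way there, at 5.26 and 6.51. Its difference of 1.25 ± 0.64 was not called (limma adjusted p = 0.17), and it was the 1 marker with a positive difference in that strain. Of the brown fat markers, 5 of 7 were tested, with 1 lower in A/J, 0 called in C57BL6/J, and 2 lower and 1 higher in C3H/HeJ. As shares these were 20% lower in A/J, against 8.95% of all genes, and 40% lower and 20% higher in C3H/HeJ, against 10.6% and 12.8%. The A/J call was Ppargc1a, which is also among the regulators of mitochondrial genes, and the C3H/HeJ calls were Ppargc1a and Prdm16 lower and Dio2 higher. Leaving Ppargc1a aside, 0 of the other markers were called in A/J. The mean level of the 6 measured brown fat markers, Ppargc1a included, was 5.58 to 6.04 on untreated and 5.07 to 5.68 on irradiated A/J arrays. It was 5.06 to 5.62 against 5.07 to 5.32 in C57BL6/J, and 5.49 to 6.28 against 5.05 to 5.64 in C3H/HeJ. Ucp1, the uncoupling protein that defines brown fat, averaged 6.23 and 4.66 in untreated and irradiated A/J, 3.85 and 3.54 in C57BL6/J, and 5.49 and 3.93 in C3H/HeJ, and was not called in any (limma adjusted p = 0.129, 0.862 and 0.133). The part of heart muscle or brown fat RNA in the fall of Cox6a2, Cox7a1 and Cox8b was not tested.

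None of the other tissue forms of complex IV was called. Cox4i2 was 6.10, 5.71 and 5.99 on the untreated and 4.81, 5.27 and 5.60 on the irradiated C57BL6/J arrays, without overlap, and the difference of -0.71 ± 0.25 did not pass (limma adjusted p = 0.119). The Cox4i2 probe set was dim, with a mean level of 5.42 over the arrays, where 17.1% of all tested genes were lower. In A/J and C3H/HeJ the Cox4i2 values were -0.32 and -0.34. Those of its partner Cox4i1 were 0.14, -0.20 and -0.09 in A/J, C57BL6/J and C3H/HeJ. Ndufa4l2, a hypoxia-induced relative of the subunit Ndufa4, lay at -0.45 ± 0.18 in C3H/HeJ (limma adjusted p = 0.0801), with Ndufa4 itself at -0.33. Cox6b2, a testis form, lay at 0.43, -0.07 and 0.44, and its partner Cox6b1 at 0.13, -0.09 and 0.01. Cox7a2l, which joins complexes III and IV, lay at -0.07, -0.22 and -0.24. Cox8c, another testis form, lay at 0.03, 0.00 and -0.17. Cox7c, a widely expressed subunit, lay at 0.21, 0.07 and -0.30. Its probe set was the dimmest among the tested subunit genes. The mean level was 5.14 over the arrays, where 12.1% of all tested genes were lower.

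Cox5a was the 1 subunit gene that rose in C3H/HeJ. It encodes a matrix-side subunit of complex IV found in all tissues. It was 10.26, 10.26 and 10.30 on the untreated and 10.69, 10.62 and 10.80 on the irradiated C3H/HeJ arrays, without overlap, a difference of 0.43 ± 0.10 (limma adjusted p = 0.0056). The call held in 15 of 15 alternative settings, with values of 0.38 to 1.16, and was 0.38 without irradiated array 3 (limma adjusted p = 0.028). Both other Cox5a probe sets pointed the same way, at 0.36 and 0.49. In A/J and C57BL6/J the brightest probe set gave 0.03 and -0.02. One of the others was called higher in A/J at 0.30 over probe sets (limma adjusted p = 0.0367), and the third gave -0.29 there. Macrophage markers rose in irradiated C3H/HeJ lung as well, 4 of 5 tested with a median of 1.27, and their part in the Cox5a value was not tested.

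No subunit gene was called as differing between strains in its response. Limma called 0 of 80 in each pair of strains, where all genes gave 2.47% higher and 2.99% lower for C57BL6/J minus A/J, 0.596% and 1.01% for C57BL6/J minus C3H/HeJ, and 0.556% and 0.508% for C3H/HeJ minus A/J. At an unadjusted p under 0.05 the higher and lower counts were 1 and 13, 2 and 3, and 4 and 7 of 80. Over all genes the shares at that threshold were 7.59% higher and 13.5% lower, 7.15% and 9.18%, and 7.10% and 10.8%, so that the 13 lower, or 16.2%, stood near the share of all genes. For Cox8b the difference of effects was -1.67 ± 0.60 for C3H/HeJ minus A/J (limma adjusted p = 0.165) and 1.34 ± 0.60 for C57BL6/J minus C3H/HeJ (limma adjusted p = 0.279). The calls of Cox6a2 and Cox8b in C3H/HeJ alone thus do not show a difference between strains. With median centring, 4 subunit genes were called lower for C57BL6/J minus A/J, and 1 was called when untreated A/J array 3 or irradiated A/J array 2 was left out. Over all genes the calls for C57BL6/J minus A/J split into 306 higher and 371 lower, against 27 and 224 without scaling and 181 and 767 with centring. For C57BL6/J minus C3H/HeJ the split of 74 and 125 became 9 and 210, and 29 and 209, and for C3H/HeJ minus A/J that of 69 and 63 became 25 and 11, and 45 and 25.

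Untreated strains differed at 3 complex I genes. Ndufa12 and Ndufb8 were higher in C57BL6/J than in A/J, 2 of 80 or 2.5% with 0 lower, against 5.93% and 4.46% of all genes. Ndufa12, Ndufb8 and Ndufc2 were higher in C57BL6/J than in C3H/HeJ, 3 of 80 or 3.75% with 0 lower, against 6.01% and 4.82%. Ndufc2 was lower in C3H/HeJ than in A/J, 1 of 80 or 1.25% with 0 higher, against 2.34% higher and 2.16% lower over all genes. At an unadjusted p under 0.05 limma had 14 higher and 0 lower for C57BL6/J minus A/J, 9 and 0 for C57BL6/J minus C3H/HeJ, and 4 and 1 for C3H/HeJ minus A/J. The higher counts were 17.5%, 11.2% and 5% of subunit genes, against 12.6%, 12.5% and 9.35% of all genes, of which 11.0%, 12.2% and 8.34% were lower at that threshold. Over all genes the split of 746 higher and 598 lower for C57BL6/J minus C3H/HeJ became 383 and 64 without scaling and 562 and 250 with centring, and that of 290 and 268 for C3H/HeJ minus A/J became 36 and 215, and 139 and 214.

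Ndufa12, an accessory subunit of complex I, was 10.35, 10.11 and 10.17 on untreated C57BL6/J arrays, 9.66, 9.61 and 9.63 on A/J arrays, and 9.76, 9.59 and 9.73 on C3H/HeJ arrays. The C57BL6/J arrays were above all others, by 0.58 ± 0.09 against A/J and 0.52 ± 0.09 against C3H/HeJ (limma adjusted p = 0.00034 and 0.00106). Irradiated arrays kept the order, at 10.02, 10.05 and 10.05 in C57BL6/J against 9.50 to 9.61 in both others. Its 4 probe sets disagreed: for C57BL6/J minus A/J they gave 0.58, 0.97, -0.19 and -0.46, and for C57BL6/J minus C3H/HeJ 0.52, 1.08, -0.05 and -0.25. The pair of positive probe sets carries the suffix x, by which the maker marks probes that may bind other transcripts. Ndufb8, a membrane arm subunit, was 9.62, 9.35 and 9.49 in C57BL6/J against 8.91, 8.83 and 8.96 in A/J and 8.76, 9.11 and 9.24 in C3H/HeJ. Its differences were 0.59 ± 0.12 and 0.45 ± 0.12 (limma adjusted p = 0.00548 and 0.0286), and its dim second probe set gave -0.01 and 0.29.

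Ndufc2, another membrane arm subunit, was 10.90, 10.93 and 10.91 in untreated C57BL6/J, 10.95, 10.90 and 10.90 in A/J, and 10.57, 10.62 and 10.70 in C3H/HeJ, where it was lowest. The difference was 0.28 ± 0.07 for C57BL6/J minus C3H/HeJ and -0.29 ± 0.07 for C3H/HeJ minus A/J (limma adjusted p = 0.0243 and 0.0398). Its other probe sets gave 0.58 and 0.22 for C57BL6/J minus C3H/HeJ, and -0.55 and -0.02 for C3H/HeJ minus A/J. With untreated C57BL6/J arrays 1 and 3 and irradiated A/J array 3 set aside, no subunit gene was called between untreated strains, with Ndufa12 at 0.48 against A/J (limma adjusted p = 0.0543). The 3 calls against C3H/HeJ became 1 without untreated C57BL6/J array 1, without its array 3 or without C3H/HeJ array 1. The Ndufc2 call between C3H/HeJ and A/J was lost without any 1 of the 6 arrays.

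**Figure D4:**
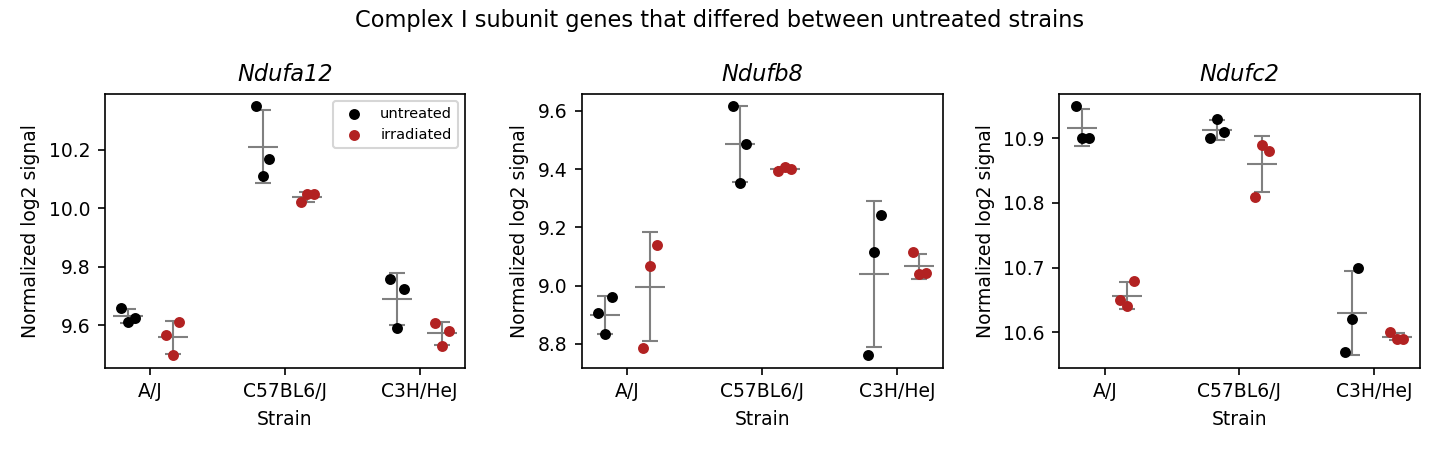
Normalised log2 signal (y axis, scaled per panel) of Ndufa12, Ndufb8 and Ndufc2 on every array, by strain (x axis), untreated in black and irradiated in red, with the mean and SD of 3 arrays in grey. C57BL6/J lies highest for Ndufa12 in both conditions, and C3H/HeJ lies lowest for Ndufc2 among untreated arrays.

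Other mitochondrial gene lists moved in few members as well. Of 76 mitochondrial ribosome genes, 3 rose and 4 fell in A/J, 0 and 3 in C57BL6/J, and 6 and 3 in C3H/HeJ, with medians of 0.07, -0.13 and 0.01 beside 0.09, -0.01 and 0.01 over all genes. The shares called higher and lower were 3.95% and 5.26% in A/J, 0% and 3.95% in C57BL6/J, and 7.89% and 3.95% in C3H/HeJ. Over all genes they were 15.1% and 8.95%, 2.99% and 2.36%, and 12.8% and 10.6%. Mrps18b rose in A/J and C3H/HeJ, by 0.61 and 0.52, Mrps6 in A/J by 0.36 (lost without untreated array 1 or 2 or irradiated array 1 or 3) and Mrpl33 in C3H/HeJ by 0.62. Called lower were Mrpl9 (-0.55) and Mrps18a (-0.44) in A/J, Mrpl49 (-0.61) and Mrps27 (-0.58) in C57BL6/J, and Mrps9 (-0.39) and Mrpl14 (-0.38) in C3H/HeJ, each call lost without scaling and with centring and kept in 4 to 10 of 15 alternative settings. Mrpl14 was also called lower in C57BL6/J, at -0.51 (limma adjusted p = 0.0335). That call was kept in 6 of 15, and likewise lost without scaling and with centring. Among the higher calls, Mrps6 was kept in 8 of 15, Mrps18b in 13 in A/J and 12 in C3H/HeJ, and Mrpl33 in 15. Of 23 tested import genes, 0 rose and 1 fell in A/J, or 4.35%, and 0 were called in the others. The lower one was Tomm7, of the outer membrane channel, at -0.48, a call lost without scaling and with centring. At an unadjusted p under 0.05, limma had 0 import genes higher and 2 lower in C57BL6/J and 3 higher and 1 lower in C3H/HeJ. Of 18 tricarboxylic acid cycle genes, 2 were called higher in A/J, or 11.1%. In C57BL6/J 0 were called, and limma had 0 higher and 2 lower at an unadjusted p under 0.05. In C3H/HeJ 2 were lower, or 11.1%. These were Idh2, the mitochondrial NADP isocitrate dehydrogenase, at -0.47 ± 0.12 (limma adjusted p = 0.00884), and Sucla2 at -0.27. Both calls were lost without scaling and with centring, with 12 and 4 of 15 alternative settings keeping them. In A/J the higher genes were Suclg2 at 0.43, kept in 14 of 15, and Ogdh at 0.31, kept in 7 of 15 and lost without untreated array 1 or 2 or any 1 irradiated array.

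Assembly factors, which build the complexes but are not part of them, numbered 42. In A/J 3 rose and 2 fell, in C57BL6/J 0 rose and 1 fell, and in C3H/HeJ 1 rose and 3 fell. As shares these were 7.14% and 4.76%, 0% and 2.38%, and 2.38% and 7.14%. Over all genes they were 15.1% and 8.95%, 2.99% and 2.36%, and 12.8% and 10.6%. Ttc19, a factor of complex III, rose in A/J by 0.95 ± 0.20 (limma adjusted p = 0.00269), with 5.77, 5.47 and 5.59 on untreated and 6.91, 6.56 and 6.22 on irradiated arrays. Sco2, a copper chaperone of complex IV, rose in A/J by 0.42 (limma adjusted p = 0.0207), a call lost without scaling and without untreated array 2 or irradiated array 1. Cox17, which hands copper to complex IV, was lower in A/J at -0.53 (limma adjusted p = 0.00373), a call lost without scaling and with centring. Lrpprc, which stabilises mitochondrial messenger RNAs, rose in C3H/HeJ by 0.43 (limma adjusted p = 0.00758). Ndufaf4, a complex I factor, was lower in A/J (-0.38) and C3H/HeJ (-0.42), Uqcc3, a complex III factor, in C3H/HeJ (-0.42), and Ndufaf1, a complex I factor, in C57BL6/J (-0.38), and all 4 calls were lost without scaling and with centring. The Ndufaf4 calls were kept in 4 and 7 of 15 alternative settings, that of Uqcc3 in 11 and that of Ndufaf1 in 4.

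The coenzyme Q and cytochrome c list held 14 tested genes, with 3 higher in A/J and 2 in C3H/HeJ, and 0 lower in any strain. The higher calls made up 21.4% and 14.3% of the list, against 15.1% and 12.8% of all genes, so that the C3H/HeJ count was near the share of all genes. In C57BL6/J 0 were called, and 1 was higher at an unadjusted p under 0.05 in limma. Coq10b encodes a protein that binds coenzyme Q in the inner membrane. It was 7.12, 7.49 and 7.29 on the untreated and 8.41, 8.37 and 8.23 on the irradiated C3H/HeJ arrays, and rose by 1.03 ± 0.13 (limma adjusted p = 5.04e-05). In A/J it was 7.61, 7.63 and 7.51 against 8.53, 8.10 and 8.06, a rise of 0.65 ± 0.13 (limma adjusted p = 0.00198). In C57BL6/J the untreated arrays were already at 8.28, 8.17 and 8.16 and the irradiated at 8.25, 8.11 and 8.01, a difference of -0.08 ± 0.13. Both calls held in 15 of 15 alternative settings, and the response in C57BL6/J was smaller than in A/J and in C3H/HeJ by the test of the difference (limma adjusted p = 0.0299 and 0.00696). Coq4, of coenzyme Q synthesis, rose in A/J by 0.58 ± 0.12 (limma adjusted p = 0.00245), and Coq3, of the same pathway, in C3H/HeJ by 0.48 (limma adjusted p = 0.0174). Of 5 macrophage markers tested, 4 rose in A/J and 4 in C3H/HeJ, with medians of 0.72 and 1.27. In C57BL6/J 0 were called, with 3 higher at an unadjusted p under 0.05 and a median of 0.515. The order by array differed in A/J, where irradiated array 1 had the highest Coq10b value. Its macrophage marker mean was 8.15, beside 9.36 and 9.27 on irradiated arrays 2 and 3. The part of macrophages in the Coq10b values was not tested.

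Regulators of mitochondrial gene expression included called differences in opposite directions. Of 22 tested, 3 rose and 4 fell in A/J, 0 rose and 1 fell in C57BL6/J, and 1 rose and 3 fell in C3H/HeJ, with medians of -0.04, -0.04 and -0.09. As shares these were 13.6% and 18.2%, 0% and 4.55%, and 4.55% and 13.6%. Over all genes they were 15.1% and 8.95%, 2.99% and 2.36%, and 12.8% and 10.6%. Ppargc1a, the gene of the coactivator PGC-1alpha, was 5.99, 5.91 and 5.82 on the untreated and 4.25, 4.97 and 4.78 on the irradiated A/J arrays. The irradiated A/J values all lay below 4.98, the overall median used in the filter on dim probe sets. Ppargc1a fell by 1.24 ± 0.24 in A/J and 0.96 ± 0.24 in C3H/HeJ (limma adjusted p = 0.00181 and 0.00976). In C3H/HeJ the arrays read 6.05, 5.56 and 5.82 against 4.36, 5.13 and 5.07, and the call was lost without irradiated array 1 and without scaling. In C57BL6/J they read 6.17, 5.82 and 5.60 against 5.82, 5.86 and 6.53, which overlap, and the value was 0.20 ± 0.24 (limma adjusted p = 0.707). The difference of the effects in C57BL6/J and A/J was 1.44 ± 0.34 (limma adjusted p = 0.0235), and that between C57BL6/J and C3H/HeJ was 1.17 ± 0.34 (limma adjusted p = 0.105).

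Ppargc1b, the gene of the related coactivator PGC-1beta, went the other way. It was 5.28, 5.84 and 5.69 on the untreated and 6.21, 6.38 and 6.46 on the irradiated A/J arrays, and 5.13, 4.78 and 5.35 against 5.60, 5.78 and 6.19 in C3H/HeJ, without overlap in either strain. It rose by 0.75 ± 0.19 in A/J and 0.77 ± 0.19 in C3H/HeJ (limma adjusted p = 0.00875 and 0.00757), and lay at 0.11 in C57BL6/J. In A/J the Ppargc1b call was lost without untreated array 1. Ppargc1a is abundant in heart muscle and brown fat. In C3H/HeJ 6 of 10 heart muscle markers fell with it, while in A/J, where Ppargc1a fell by 1.24, 0 of 10 were called lower and their median was 0.19. Ppargc1a is itself on the brown fat list. Of the other members of that list, Ucp1 lay at -1.57 and -1.55 in A/J and C3H/HeJ and Prdm16 at -0.35 and -0.67. Cidea lay at -0.02 and -0.47, and Dio2 at 0.62 and 0.87. Prdm16 and Dio2 were called in C3H/HeJ (limma adjusted p = 0.00157 and 0.0186), and none of these 4 in A/J. Of the 5 tested on the list, Ppargc1a included, 1 had a positive difference in A/J and 1 in C3H/HeJ. The macrophage markers given with Coq10b rose in the same strains as Ppargc1b. The part of these tissues and cells in the Ppargc1a and Ppargc1b values was not tested. Tfb2m, a mitochondrial transcription factor, was lower in A/J at -0.71 ± 0.16 (limma adjusted p = 0.00386), a call lost without scaling and with centring. Gabpb1, a GABP subunit, fell in C57BL6/J by 0.59 ± 0.11 (limma adjusted p = 0.00753), a call lost without scaling and without the 3 arrays rich in skeletal muscle and squamous markers. Pprc1, a relative of the coactivators, was called higher in A/J at 0.40, a call kept in only 6 of 15 alternative settings and lost without untreated array 1 or 2 or irradiated array 1 or 3. Polg, the mitochondrial DNA polymerase, was lower in C3H/HeJ at -0.38, a call kept in 11 of 15, and lost without scaling, with centring and without irradiated array 2.

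**Figure D5:**
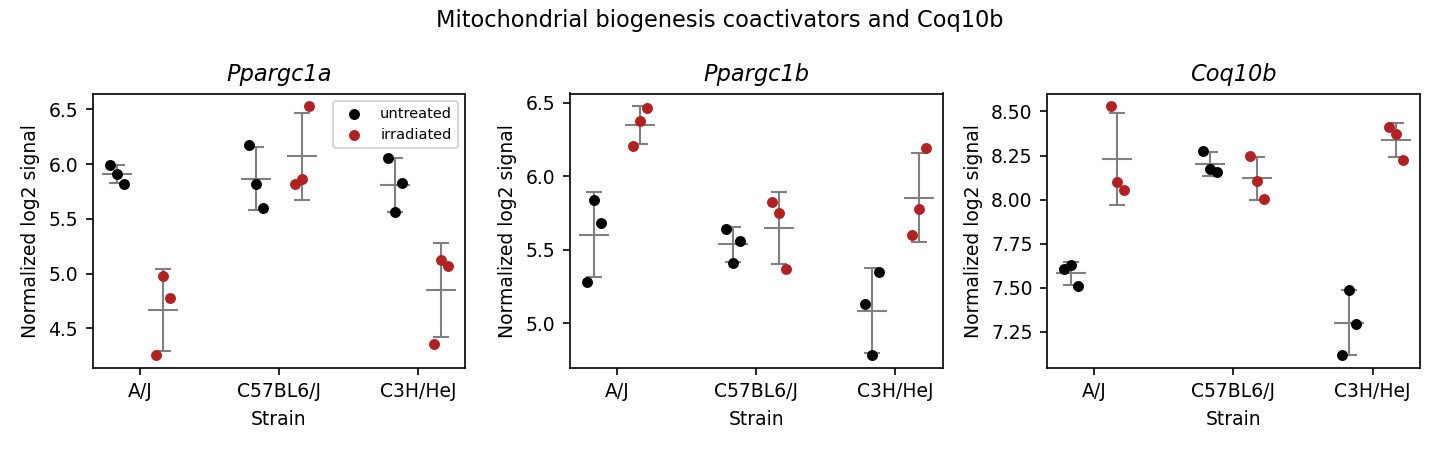
Normalised log2 signal (y axis, scaled per panel) of the coactivator genes Ppargc1a and Ppargc1b and of Coq10b on every array, by strain (x axis), untreated in black and irradiated in red, with the mean and SD of 3 arrays in grey. Irradiated arrays lie below controls for Ppargc1a and above them for Ppargc1b and Coq10b in A/J and C3H/HeJ, and overlap with them in C57BL6/J for all 3 genes.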

How the data were processed

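RNA of the right lung was measured on 18 single-colour arrays, 3 per group. The deposited values are MAS5 signal intensities per probe set (45101 probe sets), made by the authors with MAS5 per the submitters' processing notes. Its version and any scaling are not given in the sources used here. From the deposited intensities, log2(signal + 7) was taken and quantile normalised, 64 control probe sets were left out, and 25746 probe sets above the overall median on at least 3 arrays were kept. Genes came from the platform annotation, with 34958 probe sets naming 1 gene, 932 naming several and 9211 of the table not listed. The 10 probe sets naming a subunit gene with other genes were not used. The brightest kept probe set stood for a gene. All 6 groups entered 1 limma fit (limma 3.58.1, R 4.3.3, 12 residual degrees of freedom) over 12412 genes, with Benjamini-Hochberg adjustment over all genes in each of 9 comparisons, after the script was tested on simulated data. Errors are the fit's SE, n is 3 arrays a group, and the number of arrays limits the precision. The labels' protocols name 3 moribund mice and 3 control samples per strain.

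The text names, for each complex and strain, the 3 subunit genes with the highest and the 3 with the lowest difference, called genes between strains, tissue forms, catalytic subunits, and up to 2 called genes at either end of the other mitochondrial lists. Where one of these is left unnamed it lies within a printed range. Subunit genes and lists were chosen with earlier results of these data known. Alternatives were no scaling, median centring, offsets 32 and 1, no filter, the mean of probe sets, the replicate number as a block, only the 2 groups compared, and arrays left out. Within strains, deviations of same-numbered arrays correlated at -0.0841 to 0.0956. The labels do not say what the numbers mark, and these correlations cannot exclude a shared day or litter.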

Additional observations from a re-analysis of the deposited data

Results flagged for a closer look

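Over the 6 other mitochondrial lists, limma's test of the difference in response between C57BL6/J and A/J called 1 of 195 genes higher and 5 lower, or 0.513% and 2.56%, against 2.47% and 2.99% of all genes, and for C57BL6/J minus C3H/HeJ 0 higher and 1 lower. These shares were not above those of all genes. Coq10b responded less in C57BL6/J than in A/J, by -0.73 ± 0.18 (adjusted p = 0.0299), and than in C3H/HeJ, by -1.12 ± 0.18 (adjusted p = 0.00696). Ppargc1a differed by 1.44 ± 0.34 between C57BL6/J and A/J (adjusted p = 0.0235), with a fall in all 3 irradiated A/J arrays. Sco2, a copper chaperone, differed by -0.69 ± 0.17 for C57BL6/J minus A/J (adjusted p = 0.0299), from effects of -0.27 and 0.42. Mrps27, a mitochondrial ribosome gene, differed by -0.97 ± 0.22 for C57BL6/J minus A/J (adjusted p = 0.0189), from effects of -0.58 and 0.39. Polrmt, the mitochondrial RNA polymerase, differed by -0.53 ± 0.15 for the same pair (adjusted p = 0.0429).

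The median deviation of the 80 subunit genes from their controls was above 0 on all 3 irradiated A/J arrays and below 0 on all 3 irradiated arrays of C57BL6/J and of C3H/HeJ. The strain means differed by 0.169 for A/J minus C57BL6/J and by 0.101 for A/J minus C3H/HeJ, and neither difference was tested.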

How the results depend on the processing

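In A/J the 12 calls became 6 without scaling, 34 with median centring, 4 with no filter, 6 with the replicate block, 5 without the 3 marker-rich arrays, 2 with only the 2 groups compared, and 3 to 8 with 1 array left out. In C57BL6/J the 1 call became 0 without scaling, with centring, offset 1, no filter, the replicate block, the 3 arrays set aside and only the 2 groups, and 0 to 1 with 1 array left out. In C3H/HeJ the 7 calls became 12 without scaling, 16 with centring, 4 with no filter, 4 with only the 2 groups, and 4 to 6 with 1 array left out. For the difference C57BL6/J minus A/J, 0 became 4 with centring and 0 to 1 with 1 array left out. Between untreated strains, the 2 calls for C57BL6/J minus A/J became 0 without scaling and without the 3 arrays. The 3 for C57BL6/J minus C3H/HeJ became 0 in both, 1 with no filter, and 1 to 3 with 1 array left out. The 1 for C3H/HeJ minus A/J became 2 with the mean of probe sets, and 0 without scaling, with centring, no filter, the replicate block, without the 3 arrays and with any 1 array left out. The replicate block changed no other count of subunit genes by over 1.5 times.

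Median differences of subunit genes moved from 0.05 to 0.615 without scaling, 0.386 with centring and 0.0188 with the mean of probe sets in A/J (0.0129 to 0.072 with 1 array left out), from -0.12 to -0.0438 without scaling in C57BL6/J, and from -0.06 to 0.665 and 0.291 in C3H/HeJ (-0.0874 to -0.0195). Signs reversed in A/J without scaling for Atp5h (0.0884), Ndufb10 (0.295), Ndufc1 (0.249) and Ndufc2 (0.318), with centring for Ndufb10 (0.0654), Ndufc1 (0.0193) and Ndufc2 (0.0885), and with the mean of probe sets for Sdhc (-0.00718). In C3H/HeJ they reversed without scaling for Ndufb11 (0.369), Ndufb3 (0.400) and Sdha (0.458), and with centring for Ndufb3 (0.0251) and Sdha (0.0831). The cause was not tested. Over single genes and alternatives, 162 values lost and 52 gained a call. Of the named subunit calls, Cox8b and Cox5a in C3H/HeJ held in 15 of 15. Detection calls were not used here, so signal over background is not known for single genes.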
